A study of Rattus norvegicus and Homo sapiens with 12 samples.

Results

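The 8 genes described here encode the initiator caspases CASP2, CASP8, CASP9 and CASP10, the executioner caspase CASP6, the apoptosome proteins APAF1 and cytochrome c (CYCS), and the mitochondrial protein DIABLO. They were listed by name and not by a cut on their values, although earlier results of these data were known. They were found by Ensembl identifier among the 60107 gene identifiers of the DU145 count table. DU145 is a human prostate cancer cell line that grows without androgen. A pair of populations was compared. F0 is the parental line. F2 is what grew out after repeated 72 h exposures of DU145 to conditioned medium (CM) of human bone marrow mesenchymal stem cells (MSCs). The sample labels give 2 such exposures and the description of the series gives 3. The labels name no engineered allele in either population, and both were kept in DMEM with 10% FBS. RNA from 3 F0 and 3 F2 samples was profiled by QuantSeq, a method that starts from the poly(A) tail and yields 1 sequenced fragment per transcript, close to its 3′ end. The sources do not state whether the 3 F2 samples were selected separately, so that n, SD and p describe the spread between samples, which may be technical.

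Caspases are proteases that cut other proteins after aspartate and carry out apoptosis. In the mitochondrial route, cytochrome c leaves the mitochondrion and binds APAF1, which assembles into the apoptosome and activates CASP9. CASP9 then cuts the executioner caspases. In the death receptor route, CASP8 and CASP10 are activated at the receptor by the adaptor FADD. DIABLO leaves the mitochondrion with cytochrome c and frees caspases from inhibitor of apoptosis proteins (IAPs) such as XIAP. Caspases are made as inactive precursors, so RNA counts describe the supply of precursor transcripts and not protein, cleavage or activity.

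The 5 caspases share the short stretch around the cysteine that does the cutting, and it is shown because it is the sequence that makes them one family. The coding bases below were read from GENCODE release 29 transcripts on GRCh38, 5′ to 3′, with the codon of the catalytic cysteine in capitals.
CASP9: tttttcatccaggccTGTggtggggagcag
CASP8: ttttttattcaggctTGTcagggggataac
CASP10: tttttcatccaggccTGCcaaggtgaagag
CASP2: ttcttcatccaggccTGCcgtggagatgag
CASP6: tttatcattcaggcaTGTcggggaaaccag
The capital codon is number 287 of 416 in CASP9, 360 of 479 in CASP8, 401 of 522 in CASP10, 320 of 452 in CASP2 and 163 of 293 in CASP6. Over these 30 bases, the pairs of caspases shared between 20 bases (CASP10 with CASP6, and CASP2 with CASP8) and 25 bases (CASP10 with CASP2). The stretch lies in exon 9 of 10 of CASP8 (chr2:201285076-201285105, plus strand) and in exon 9 of 10 of CASP10 (chr2:201209333-201209362, plus strand). In the other 3 genes the stretch runs over an exon junction, and the positions given span all of it. The capital codon begins in exon 6 of 9 of CASP9 (chr1:15495448-15504635, minus strand), exon 8 of 11 of CASP2 (chr7:143300270-143303788, plus strand) and exon 6 of 7 of CASP6 (chr4:109690992-109694536, minus strand).

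A second pair of sequences joins DIABLO to CASP9, since both proteins expose a short N-terminal motif after processing by which they bind XIAP. The 4 codons of that motif are in capitals.
DIABLO: GCGGTTCCTATTgcacagaaatcagagcct
CASP9: GCCACCCCGTTCcaggaaggtttgaggacc
In DIABLO the motif starts at codon 56 of 239 (chr12:122218386-122224529, minus strand, over an exon junction), and in CASP9 at codon 316 of 416 (chr1:15495346-15495375, minus strand, exon 7 of 9). QuantSeq reads come from transcript ends, and counts were summed per gene, so none of these coding stretches was itself measured. For the same reason, short CASP9 and CASP2 transcripts that encode inhibitory proteins could not be told from the full-length ones.

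The 6 libraries held between 15879480 and 16479239 counts assigned to genes. Levels are given as CPM, the counts of a gene relative to the total of its library after TMM scaling. Since each transcript gives 1 fragment, they can be set side by side between genes, but only approximately. Alignments at more than 1 place were not counted to a gene, and their loss can differ between genes. They numbered 0.59 to 0.62 per gene count in F0 and 0.54 to 0.57 in F2. The share of counts from mitochondrially encoded genes had a median of 5.87% in F0 and 10.4% in F2. Scaling by library size alone, in place of TMM, moved the median log2 fold change of all tested genes from -0.0025 to -0.092. The 5 epithelial markers were detected in every library (CDH1 fell from 14.0 to 5.78 CPM, and KRT8, KRT18, KRT19 and EPCAM rose), while the prostate luminal markers KLK2 and KLK3 had 0 and 1 counts in all. Of 10 MSC markers, COL1A1 and COL1A2 exceeded 3 counts in a library, LUM, POSTN, CXCL12 and THY1 were at 0, and their summed level was 2.54 to 3.69 CPM in F0 and 1.79 to 2.81 CPM in F2. In bulk RNA, fewer cells that express a gene and less of its RNA per cell cannot be told apart.

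Of the 8 genes, 1 passed the threshold of an adjusted p under 0.05 (edgeR, Benjamini-Hochberg over 14316 tested genes), and it was CASP9, which was lower in F2. All 8 were expressed above the count filter. Among all tested genes, 18.2% passed this threshold, 8.67% lower and 9.49% higher in F2. Groups that did not overlap were seen for CASP9 and CASP6, 2 of the 8, against 34.0% of tested genes. An unadjusted p under 0.05 was seen for CASP9, CASP6 and CASP2, 3 of the 8, against 30.7% of tested genes. The shares of the 8 genes thus lay near those of the background. Their median log2 fold change was -0.047, against -0.0025 over all tested genes, and their median change without regard to sign was 0.10, against 0.15.

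**Figure D1:**
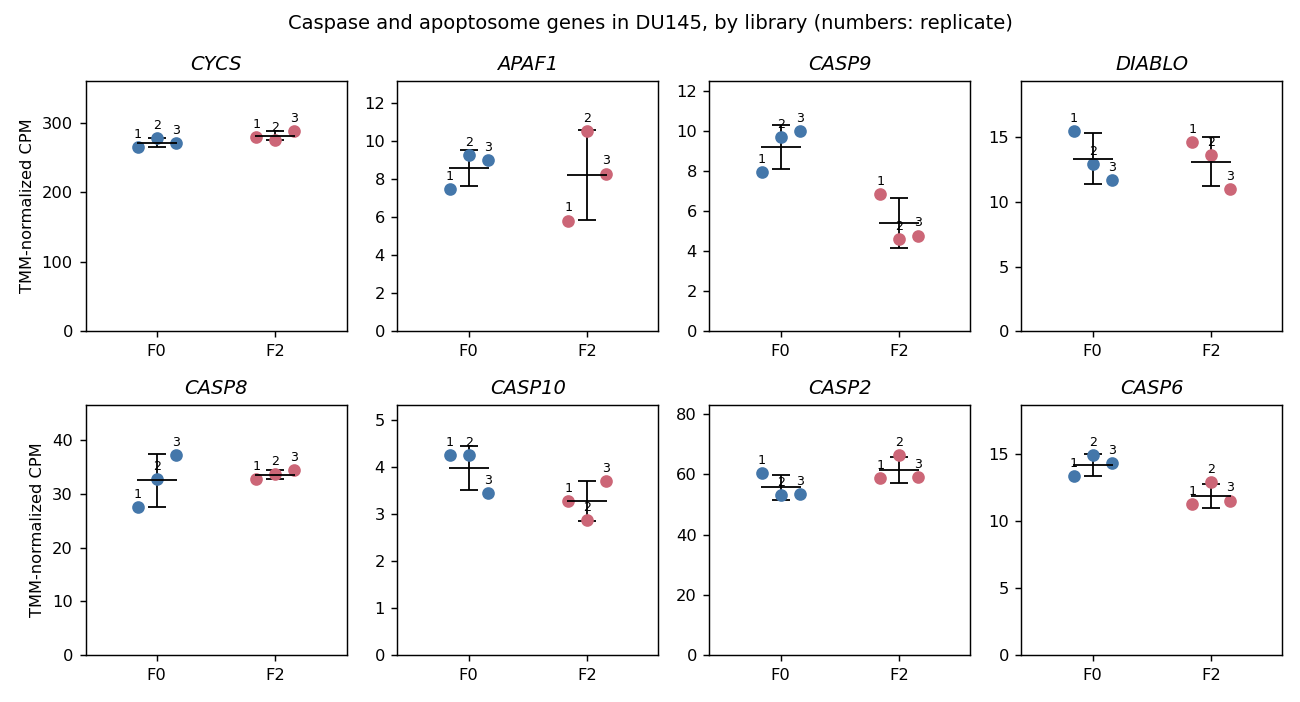
TMM-normalized CPM (vertical axes, from 0) of the 8 genes in the 3 F0 and 3 F2 DU145 libraries, with the replicate number above each point, the mean as a horizontal line and the SD as an error bar. The 3 F2 libraries lie below the 3 F0 libraries for CASP9 and CASP6, and the groups overlap for the other 6 genes.

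CYCS encodes cytochrome c, an electron carrier of the respiratory chain that triggers the apoptosome once it is in the cytosol (ENSG00000172115, chr7:25120091-25125361, minus strand). Its levels were 265, 278 and 271 CPM in F0 and 280, 276 and 288 CPM in F2. The groups overlapped, and all 6 values lay within a narrow band. The log2 fold change was 0.05 (standard error 0.043, adjusted p = 0.454), with a 95% interval for the fold of 0.973 to 1.10. CYCS has many processed pseudogenes, and the 42 in the table together drew between 1 and 9 counts per library, against 4243 to 4583 for CYCS itself. Reads aligned at more than 1 place were left out of both, so these counts cannot show how many CYCS reads were lost.

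APAF1 encodes the scaffold of the apoptosome (ENSG00000120868, chr12:98645141-98735433, plus strand). Its levels were 7.50, 9.27 and 8.99 CPM in F0 and 5.82, 10.5 and 8.29 CPM in F2. The F2 libraries held both the lowest and the highest of the 6 values. The means were 8.59 ± 0.952 and 8.21 ± 2.35 CPM (SD, n = 3 each), and the log2 fold change was -0.07 (standard error 0.168, adjusted p = 0.837). The 95% interval of the fold, 0.749 to 1.22, leaves room for a change of either sign. Leaving out F2 replicate 1 turned the log2 fold change to 0.13.

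CASP9 encodes the initiator caspase that the apoptosome activates (ENSG00000132906, chr1:15490832-15526534, minus strand). Its levels were 7.97, 9.69 and 10.0 CPM in F0 (135, 160 and 169 counts) and 6.84, 4.61 and 4.78 CPM in F2 (107, 71 and 75 counts). Every F2 library lay below every F0 library, and the gap was narrowest between F0 replicate 1 and F2 replicate 1. The mean was 9.22 ± 1.09 CPM in F0 and fell to 5.41 ± 1.24 CPM in F2 (SD, n = 3 each). On the log2 scale the fold change was -0.77 (standard error 0.159, 95% interval -1.10 to -0.43, adjusted p = 0.0020 from edgeR). This is a fold of 0.588, with an interval of 0.466 to 0.740. The change was larger in size than that of 95.7% of the tested genes. Over 13 alternative settings, each of which changed 1 choice of the processing or left out 1 library, the log2 fold change lay between -0.97 and -0.66 and the adjusted p between 7.5e-06 and 0.016, and CASP9 was past the threshold in all 13. The exact permutation test over the 6 libraries gave p = 0.1, the smallest value that 3 samples against 3 allow. CASP9 has 7 different annotated ends among its coding transcripts, and the other members have from 3 (CASP2) to 13 (CASP8). A count of each gene sums over its ends.

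DIABLO encodes a mitochondrial protein, also called SMAC, that displaces caspases from IAPs (ENSG00000184047, chr12:122207663-122226568, minus strand). Its levels were 15.5, 12.9 and 11.7 CPM in F0 and 14.6, 13.6 and 11.0 CPM in F2. The ranges overlapped almost entirely. The log2 fold change was -0.03 (standard error 0.127, adjusted p = 0.909), with a 95% interval for the fold of 0.816 to 1.18. The last exon of DIABLO is overlapped by AC048338.1 on the same strand and B3GNT4 on the opposite strand, so that some reads there could have been counted as ambiguous and left out.

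CASP8 encodes the initiator caspase of the death receptor route (ENSG00000064012, chr2:201233443-201287711, plus strand). Its levels were 27.5, 32.8 and 37.3 CPM in F0 and 32.7, 33.6 and 34.4 CPM in F2. The F2 values all fell inside the wider F0 range. The log2 fold change was 0.05 (standard error 0.090, adjusted p = 0.762, 95% interval of the fold 0.907 to 1.18).

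CASP10 encodes the close relative of CASP8 that is recruited to the same receptors, and it lies beside CASP8 on chromosome 2 (ENSG00000003400, chr2:201182881-201229406, plus strand). It was the lowest of the 8 genes, at 4.25, 4.24 and 3.43 CPM in F0 and 3.26, 2.86 and 3.70 CPM in F2, from 44 to 72 counts per library. F2 replicate 3 lay above F0 replicate 3, so the groups overlapped. The log2 fold change was -0.28 (standard error 0.189, adjusted p = 0.341), and the 95% interval of the fold was 0.627 to 1.08. Its standard error was the largest of the 8 genes.

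CASP2 encodes an initiator caspase that is activated by the PIDDosome, a complex of PIDD1 and CRADD (ENSG00000106144, chr7:143288215-143307696, plus strand). Its levels were 60.4, 53.1 and 53.6 CPM in F0 and 58.9, 66.5 and 59.2 CPM in F2. The groups overlapped through F0 replicate 1, which lay above F2 replicates 1 and 3. The log2 fold change was 0.14 (standard error 0.067, 95% interval 0.003 to 0.285), with an unadjusted p of 0.046 and an adjusted p of 0.153 from edgeR. Without F0 replicate 1 it was 0.21 (adjusted p = 0.0445), past the threshold.

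CASP6 encodes an executioner caspase that cuts lamin A among other proteins (ENSG00000138794, chr4:109688622-109703583, minus strand). Its levels were 13.3, 15.0 and 14.4 CPM in F0 and 11.3, 12.9 and 11.5 CPM in F2. All 3 F2 libraries lay below all 3 F0 libraries, but by a small margin. The log2 fold change was -0.26 (standard error 0.106, 95% interval -0.479 to -0.036), with an unadjusted p of 0.025 and an adjusted p of 0.102 from edgeR, so CASP6 did not pass the threshold. Scaling by library size alone, which moved all genes downward, took it to -0.35 (adjusted p = 0.022).

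**Figure D2:**
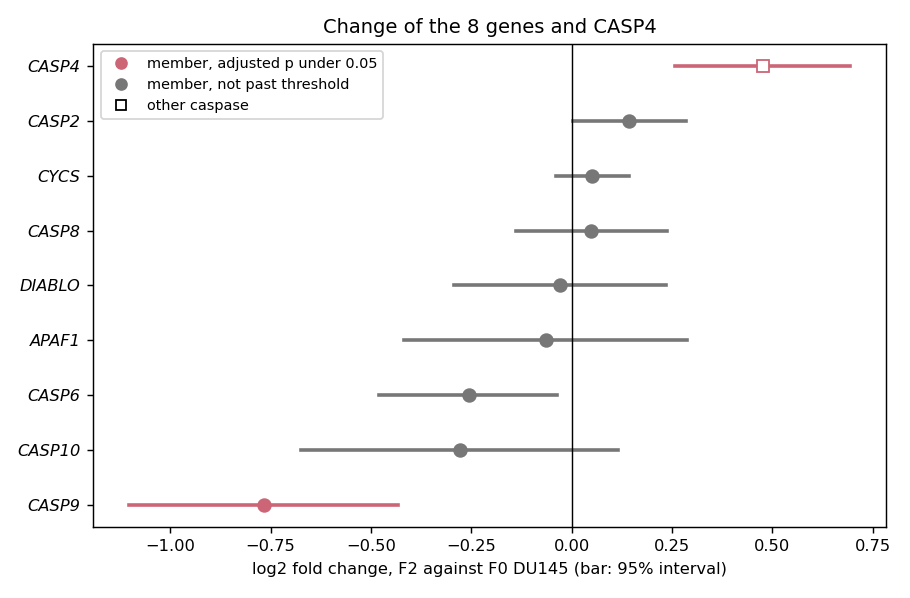
Log2 fold change of F2 against F0 DU145 (horizontal axis) with its 95% interval for the 8 genes (circles) and for CASP4 (square), red where the adjusted p was under 0.05. CASP9 at -0.77 and CASP4 at 0.48 are past the threshold, at opposite ends of the plot.

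**Figure D3:**
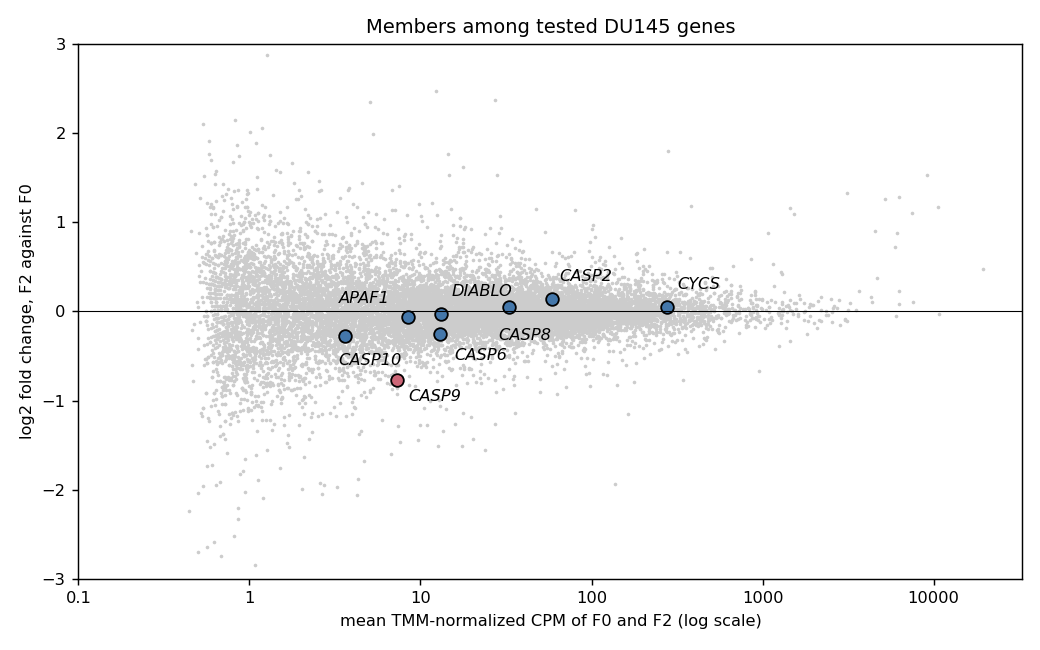
Log2 fold change of F2 against F0 (vertical axis) by the mean TMM-normalized CPM of F0 and F2 (horizontal log axis) for tested genes (grey) and the 8 genes (circles, red for CASP9, blue for the others). CASP9 lies toward the lower edge of genes of its level and the other 7 within the grey band, and 3 genes fall outside the plotted range of -3 to 3.

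The order of levels was close to the same in both populations. In F0 it ran from CYCS (271 CPM) through CASP2 (55.7), CASP8 (32.5), CASP6 (14.2), DIABLO (13.3), CASP9 (9.22) and APAF1 (8.59) to CASP10 (3.97). The libraries of CASP6 and DIABLO overlapped, as did those of CASP9 and APAF1, and all other neighbours in this order were apart. In F2 the order within both of these pairs was turned, with DIABLO at 13.1 and CASP6 at 11.9 CPM and with APAF1 at 8.21 and CASP9 at 5.41 CPM, and the libraries of each pair again overlapped. CYCS alone made up 66.4% of the summed level of the 8 genes in F0 and 67.2% in F2. Its mean was 68.2 times that of CASP10 in F0 and 85.9 times in F2.

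Ratios of counts within a library do not depend on the scaling, and 5 were compared with the exact permutation test, in which p could not go below 0.1. The ratio of CASP9 to CASP8, the initiators of the mitochondrial and the death receptor route, was 0.290, 0.296 and 0.268 in F0 and 0.209, 0.137 and 0.139 in F2. All F2 libraries lay below all F0 libraries (log2 difference -0.84, exact permutation p = 0.1, adjusted over the 5 ratios p = 0.5). The ratio of CASP9 to its activator APAF1 was 1.06, 1.05 and 1.11 in F0 and 1.18, 0.438 and 0.577 in F2. The 3 F0 libraries were nearly equal in this ratio, whereas F2 replicate 1, which had the highest CASP9 and the lowest APAF1 of the F2 libraries, lay above them and the other two F2 libraries far below (exact permutation p = 0.4). For CYCS to APAF1, CASP10 to CASP8 and DIABLO to XIAP the groups overlapped, with log2 differences of 0.15, -0.34 and -0.20 and exact permutation p of 0.7, 0.3 and 0.3. With 1 library left out, the log2 difference lay between -0.55 and -0.17 for CASP10 to CASP8, between -0.31 and -0.087 for DIABLO to XIAP and between -1.09 and -0.38 for CASP9 to APAF1.

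**Figure D4:**
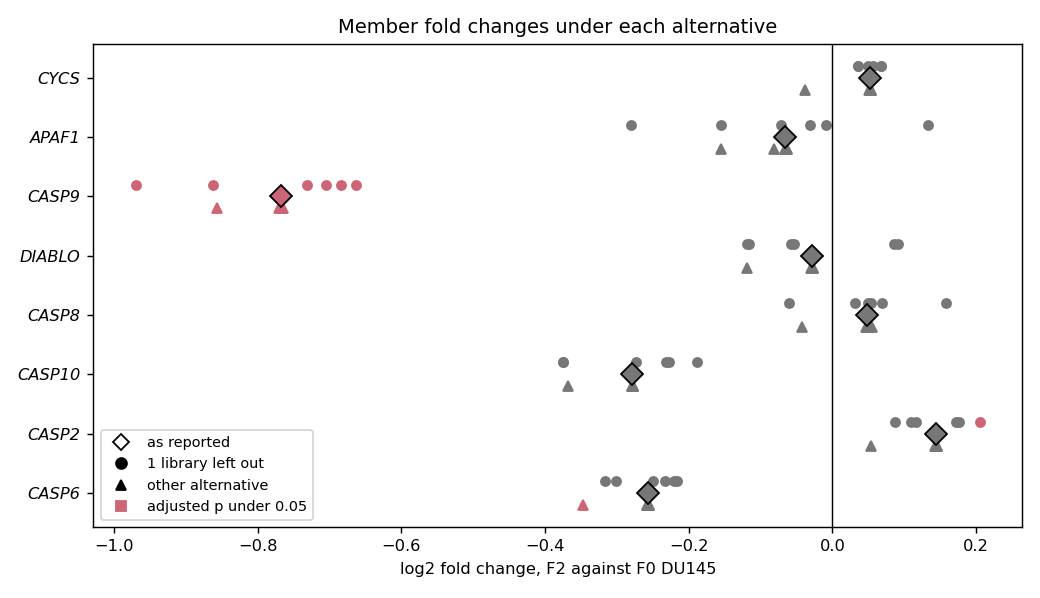
Log2 fold change of F2 against F0 DU145 (horizontal axis) of each of the 8 genes as reported (diamonds), with 1 library left out (circles) and under the other alternatives (triangles), red where the adjusted p was under 0.05. CASP9 stays between -0.97 and -0.66 and is red throughout, while CASP2 and CASP6 are red under 1 alternative each and 4 genes have values on both sides of 0.

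The 5 genes whose pattern over the 6 libraries was most like that of CASP9 were ZNF488, ELMOD1, BBC3, CNTNAP3 and GLRX, out of 10158 genes with a mean of at least 5 CPM. Likeness was the root-mean-square difference of centred log2 CPM, which was 0.110 for ZNF488, 0.121 for ELMOD1, 0.124 for BBC3, 0.142 for CNTNAP3 and 0.142 for GLRX. All 5 were lower in F2 (log2 fold changes from -0.86 for BBC3 to -0.55 for GLRX), which a choice by likeness to CASP9 brings about. BBC3 encodes PUMA, a BH3-only protein that promotes cytochrome c release, and its mean was 9.42 CPM in F0 against 5.18 CPM in F2. A link between BBC3 and CASP9 was not tested. Among the other 7 genes described here, CASP6 was closest to CASP9 but ranked only 1032 in the same order. CASP10 came next and would rank 1468, but with a mean below 5 CPM it is not among the 10158 genes. The points share libraries and depth, so this is a description over 6 libraries.

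Within 500 kb of CASP9, 15 other genes were tested, 5 of them higher and 10 lower in F2, with a median log2 fold change of -0.098. Of these 15, 3 passed the threshold, all lower in F2. Among all tested genes, 18.2% passed in either direction and 8.67% passed as lower. Whether the neighbours differ from these shares was not tested. The 3 that passed near CASP9 were KAZN (-0.66), DNAJC16 (-0.48) and DDI2 (-0.25), which are named here after their values were seen. CASP8 and CASP10 share a neighbourhood, in which 3 of the 15 genes tested around each passed, one of them CFLAR. The 3 were the same for both genes and were all lower in F2. Around the other 5 genes, between 4 and 17 neighbours were tested and at most 1 passed in each direction.

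The wider caspase machinery was followed through 33 other genes, 28 partners of caspases and the apoptosome and 5 other caspase genes, and 29 could be tested. Of these, 7 (24.1%) passed the threshold, 5 higher and 2 lower in F2, against 18.2% of all tested genes, and their median log2 fold change was 0.0008. Among the other caspases, CASP4, the inflammatory caspase that senses cytosolic lipopolysaccharide, rose, and all 3 F2 libraries lay above all 3 F0 libraries. It was at 15.2, 13.0 and 14.7 CPM in F0 and at 21.9, 17.5 and 20.2 CPM in F2, which gave 0.48 as log2 fold change (standard error 0.104, adjusted p = 0.0030), and it passed under all 13 alternatives. This was the largest change in size in the list and opposite in sign to that of CASP9. CASP1, CASP5 and CASP12 had 0 counts in all 6 libraries and CASP14 had 1 count in total, so a difference in them was not detectable at this depth.

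Of the 6 adaptors that bring initiator caspases together, 1 passed, against 18.2% of all tested genes. It was FADD, the adaptor of CASP8 and CASP10, which rose from 77.0 to 86.7 CPM (log2 fold change 0.17, adjusted p = 0.032 from edgeR). Groups did not overlap for 3 of the 6, all higher in F2, against 34.0% of tested genes. PIDD1 had the largest change of the 6 (log2 fold change 0.44, adjusted p = 0.136 from edgeR) and did not pass. FADD kept its direction under all 13 alternatives and passed in 8. A further 10 genes were 4 that restrain APAF1 or the apoptosome, 2 that promote its assembly, 3 other proteins released from mitochondria and HCCS. HCCS attaches heme to cytochrome c. None of the 10 passed in edgeR, against 18.2% of all tested genes, and none in DESeq2, which called 2091 of 14316. An unadjusted p under 0.05 from edgeR was seen for 2 of the 10, against 30.7% of tested genes. Groups did not overlap for 2 of the 3 mitochondrial proteins, 1 higher and 1 lower, and for none of the regulators or HCCS. The share over all tested genes was 34.0%. With 10 genes, these counts do not show a departure from the background. The highest of the list was PTMA, which restrains apoptosome assembly, with 1522 CPM in F0 against 1734 CPM in F2 (log2 fold change 0.19, adjusted p = 0.058). PTMA and KRT18 have many processed pseudogenes, which makes their counts less certain.

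Of 12 caspase substrates, 5 (41.7%) passed, against 18.2% of all tested genes, 3 of them higher and 2 lower in F2. The median change of the 12 without regard to sign was 0.13 on the log2 scale, against 0.15 over all tested genes. The 5 that passed were expressed above 74.1% (SPTAN1) to 98.8% (LMNA) of the tested genes. KRT18, an epithelial keratin cut early in apoptosis, went from 484 to 557 CPM (log2 fold change 0.20). Of the other 4 epithelial markers, KRT8, KRT19 and EPCAM also rose, and CDH1 fell by 1.27 on the log2 scale. PARP1, a DNA repair enzyme, rose by 0.16 and LMNA, the lamin A gene, by 0.13 on the log2 scale. LMNB1, the lamin B1 gene, fell by 0.19, although its libraries overlapped between the groups. SPTAN1, which encodes the spectrin cut by caspases in dying cells, fell from 56.3 to 45.1 CPM (log2 fold change -0.32, adjusted p = 0.0019). SPTAN1 passed under all 13 alternatives, KRT18 under 12, PARP1 under 8, and LMNA and LMNB1 under 7 each.

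**Figure D5:**
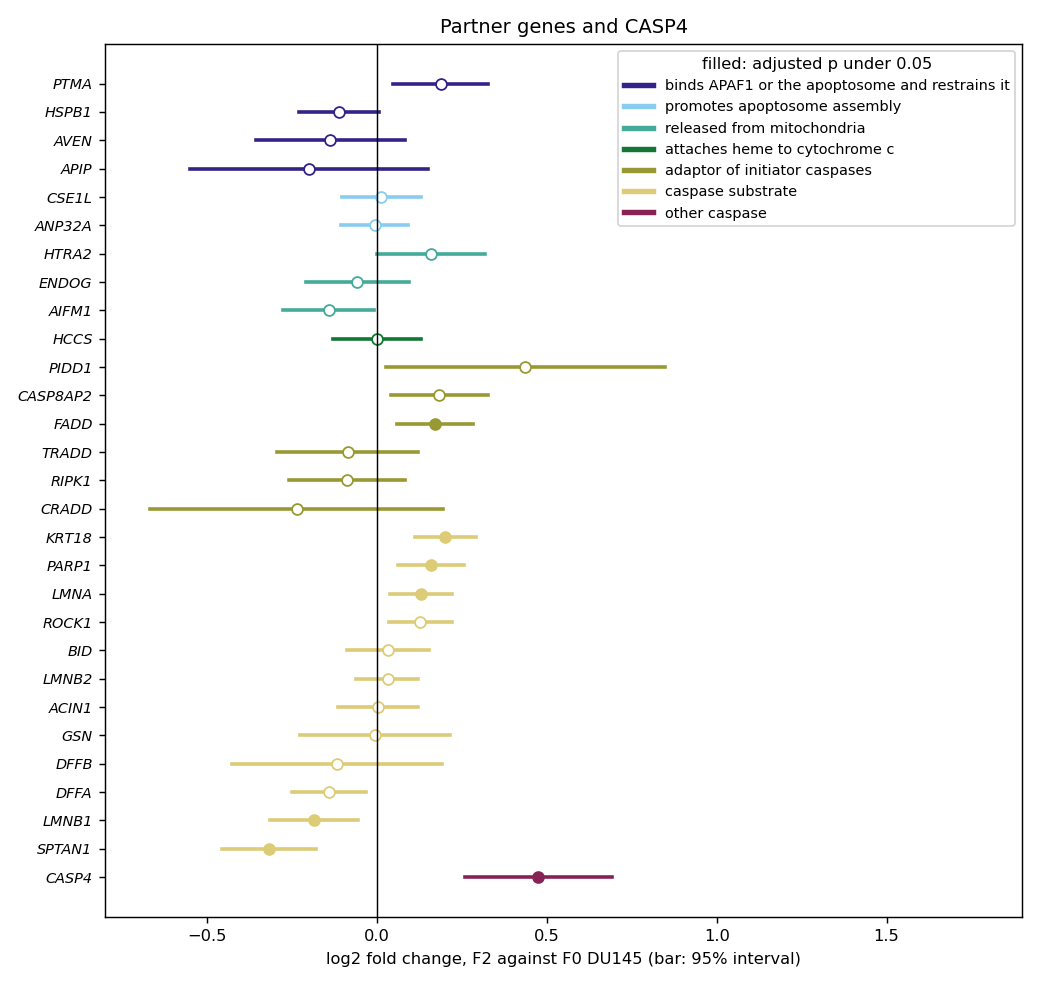
Log2 fold change of F2 against F0 DU145 (horizontal axis) with its 95% interval for the 28 tested partner genes and CASP4, coloured by role, with filled circles where the adjusted p was under 0.05. The 7 filled circles are FADD, KRT18, PARP1, LMNA and CASP4 on the right and LMNB1 and SPTAN1 on the left, and those of CASP4 and SPTAN1 lie farthest from 0.

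Of the proteins that hold caspases in check, XIAP went from 62.2 to 69.9 CPM (adjusted p = 0.095, past the threshold under 2 of 13 alternatives) and BIRC2 from 205 to 195 CPM (adjusted p = 0.288). BIRC3 fell from 153 to 93.3 CPM (log2 fold change -0.71, adjusted p = 3.7e-09) and CFLAR, which encodes the CASP8 inhibitor FLIP, fell from 234 to 207 CPM (log2 fold change -0.18, adjusted p = 0.015), but CFLAR passed under 10 of 13 alternatives and not without F0 replicate 1 (adjusted p = 0.068), F0 replicate 2 (0.063) or F2 replicate 1 (0.054).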

How the data were processed

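RNA QuantSeq libraries of 3 F0 and 3 F2 DU145 samples were used. Alignment and counting were done by the authors on the Bluebee platform, and the deposited values are unscaled whole-number counts of reads for each gene. The submitters' processing notes name STAR 2.5.2a, HTSeq 0.6.0 and GRCh38. The annotation release and the handling of strand are not given in the sources used here. Reads in no gene were 9.81% (F0) and 11.6% (F2) of uniquely placed reads and ambiguous reads 1.50% and 1.39%. These lines stayed out of library sizes and tests. PCR duplicates could not be removed. Columns were matched to samples by line, population and replicate number.

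From these counts, low genes were removed by filterByExpr, which was set to a count of 10 and a total of 15, and the rest were scaled with TMM factors and tested two-sided with the quasi-likelihood test of edgeR 4.0.16 in R 4.3.3 between F2 and F0, with Benjamini-Hochberg adjustment over all 14316 tested genes and a threshold of 0.05. The standard error was the log2 fold change divided by the root of F. DESeq2 1.42.0, median-ratio scaling, library size alone, leaving out mitochondrially encoded genes, other count filters, a fit with a replicate block, fits without each of the 6 libraries and, for CYCS, adding its pseudogenes were the alternatives. The code was tested on simulated data. Symbols were matched for 56104 of 60107 identifiers, and positions were taken from GENCODE release 29 (GRCh38), which holds 56531 of them.

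The 8 genes, the partner list and the tests were chosen with earlier results of these data known. Genes named besides the 8 are partners past the threshold, the partner with the highest level and the one with the largest change, 4 caspase inhibitors, and the 5 genes most like CASP9. Cell type markers were named as a check of the line. HCCS, the values of PIDD1, the genes that overlap DIABLO, the caspases at the floor and the neighbours of CASP9 were added after their values were seen. The libraries of the rat line were not analysed here. Some other genes are not reported here.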

Additional observations from a re-analysis of the deposited data

How the results depend on the processing

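CASP9 kept its direction and its side of the threshold under all 13 alternatives. Scaling by library size alone gave 2 of the 8 genes past the threshold, as CASP6 then passed at -0.35, and turned CASP8 to -0.042 and CYCS to -0.038. Over all tested genes it gave 3637 calls, of which 22.9% were higher in F2, against 2599 and 52.3% with TMM, and the median log2 fold change of all genes was then -0.092. Leaving out 1 library at a time gave between 1 and 2 of the 8 genes past the threshold (2 without F0 replicate 1, where CASP2 passed), 3 to 9 partners (3 without F2 replicate 1, and 4 without F0 replicate 2 or F2 replicate 3) and 1670 to 2621 of all genes (1670 without F0 replicate 2). The fits that left out a library gave log2 fold changes of 0.087 to 0.21 for CASP2, -0.061 to 0.16 for CASP8, -0.28 to 0.13 for APAF1 and -0.12 to 0.091 for DIABLO, and a log2 difference of the CYCS to APAF1 ratio of -0.072 to 0.37. The cause of these shifts was not tested.

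Libraries of the same replicate number did not deviate together over all tested genes (correlations of 0.010, -0.010 and 0.029). The labels state no pairing, and none was assumed in the main fit. These correlations include the counting noise of every gene, so they cannot exclude a shared batch. A fit with a replicate block gave 2867 calls over all genes, against 2599 without it, and 1 of the 8. DESeq2 gave 2091 calls. CASP10, APAF1 and CASP9 had between 44 and 169 counts per library, and the intervals of their folds are wide. Counting error and the 3 samples per group limit what could be seen.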
